A study of Mus musculus with 6 samples.

Results

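Counts of 4 structural RNAs and of 1 protein-coding gene were followed across wild-type (WT) and *Patz1* knockout (KO) mouse embryonic stem cells (ESCs). They are 5 of the 23420 gene symbols that were counted: *Rn45s*, the precursor of ribosomal RNA (rRNA), *Rpph1*, the RNA of RNase P, *Rmrp*, the RNA of RNase MRP, *Terc*, the RNA of telomerase, and *Lars2*, the mitochondrial leucyl-tRNA synthetase. All 5 symbols were found and had counts in each of the 6 libraries. They were chosen on the counts themselves, the RNAs as abundant non-coding transcripts and *Lars2* because its counts moved with those of rRNA, which in these data means replicate 3 against replicates 1 and 2. That contrast is therefore given as a description without a test. The rule did not use the genotype contrast, which was tested, though earlier results of these data were known when the genes were chosen. Not all of them were abundant. *Rn45s*, *Rpph1* and *Rmrp* were among the 4 symbols with the most counts in every library, *Lars2* was there in replicate 3 alone, and *Terc* ranked 3461 by mean share of counts.

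The cells were the E14 line of mouse ESCs, kept in medium with LIF and 2i (inhibitors of MEK and of GSK3). The groups were WT E14 cells and *Patz1* -/- E14 cells, with 3 libraries each, numbered 1 to 3 in both. The KO was made by CRISPR/Cas9 with a single-guide RNA transfected into WT cells and isolated as single clones, and which clone each KO library came from was not given in the sources used here. Total RNA was depleted of rRNA and sequenced as stranded libraries, and no treatment beyond the medium was given.

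The deposited counts summed to between 37573923 and 47721070 in replicates 1 and 2, and to 11040756 in WT and 11420268 in KO for replicate 3. Replicate 3 of both genotypes stood apart for *Rn45s* and *Lars2*, so values of the 5 genes are given by library, and their log2 differences with and without it. *Patz1*, the targeted gene, was at 1838 to 1983 normalized counts in the WT libraries and at 853 to 862 in the KO libraries. All 7 ESC markers examined, *Pou5f1* and *Nanog* among them, were expressed, and 0 were called between genotypes. Their summed levels were 115329 to 121404 normalized counts in WT and 126356 to 131711 in KO, without overlap. Markers of fibroblasts and feeder cells summed to 111 to 133 in WT and 150 to 182 in KO, also without overlap. Over all genes tested, 25.6% of single genes did not overlap and 7.49% were called. Of these 6 markers 1, *Thy1*, was called (58.3 to 79.8 in WT, 115 to 156 in KO). *Col1a1* was at 8.21 to 15.5 in WT and 2.64 to 13.0 in KO, and *Col1a2* at 5.48 to 14.3 and 5.34 to 7.93. *Col3a1* and *Postn* were at or near 0, and *Pdgfra* was at 22.6 to 30.1 in WT and 13.2 to 23.1 in KO. The part of the fibroblast and feeder markers in the results between genotypes was not tested. Markers of trophoblast summed to at most 14.2 and of primitive endoderm to at most 73.9. The 4 neural markers summed to 3754 to 5020, nearly all of it *Tubb3*, a tubulin.

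The rRNA genes are transcribed by RNA polymerase I into a long precursor, which is cut in the nucleolus into the rRNAs of both ribosomal subunits. RNase P trims the leader of precursor tRNAs, and its relative RNase MRP takes part in cutting the rRNA precursor. Each of these enzymes is an RNA, made by RNA polymerase III, held by a largely shared set of proteins. *Terc* carries the template that telomerase copies onto chromosome ends, and telomerase is active in ESCs. *Lars2* charges mitochondrial tRNA with leucine and is not a structural RNA.

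The sequences of the RNAs bear on how far their counts can be assigned, and are given 5′ to 3′ from GENCODE M21 transcripts on GRCm38, the build also called mm10. *Rpph1* lies on chromosome 14 from 50807449 to 50807767, minus strand, annotated as a ribozyme. It has relatives elsewhere in the genome, *Rprl1*, *Rprl2* and *Rprl3*. The closest by sequence was *Rprl3* (chromosome 8, 3803069 to 3803358, minus strand), which matched 222 of 257 aligned positions, with 14 mismatches and 21 gapped positions and a longest identical run of 37 bases. The first 35 bases of *Rpph1* and the 236 aligned bases of *Rprl3* are shown, with capitals at the bases that differ between them.
Rpph1: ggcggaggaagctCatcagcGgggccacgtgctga
Rprl3: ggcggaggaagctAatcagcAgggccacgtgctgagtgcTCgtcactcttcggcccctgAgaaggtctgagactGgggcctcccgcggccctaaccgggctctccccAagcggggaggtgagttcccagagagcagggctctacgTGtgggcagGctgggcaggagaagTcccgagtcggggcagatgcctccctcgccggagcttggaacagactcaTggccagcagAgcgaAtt
*Rpph1* and *Rmrp*, in contrast, shared no run longer than 9 bases.

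*Rmrp* lies on chromosome 4 from 43492783 to 43493063, minus strand. Its 281 bases are shown in full because 124 of them, bases 41 to 164, in capitals, also lie within an exon of a transcript of *Ccdc107* on the opposite strand.
Rmrp: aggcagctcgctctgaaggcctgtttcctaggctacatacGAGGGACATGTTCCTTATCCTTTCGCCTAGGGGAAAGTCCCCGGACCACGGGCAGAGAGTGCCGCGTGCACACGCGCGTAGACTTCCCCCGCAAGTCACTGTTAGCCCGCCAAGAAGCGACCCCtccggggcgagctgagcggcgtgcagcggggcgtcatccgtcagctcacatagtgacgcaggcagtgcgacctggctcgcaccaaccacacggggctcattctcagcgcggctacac
*Rpph1* likewise shares 233 of its 319 bases with the first exon, untranslated, of a *Ccnb1ip1* transcript on the same strand, where strand cannot separate the genes. The use of strand in counting was not stated.

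*Terc* lies on chromosome 3, minus strand, from 96414437 to 96414859 in GENCODE and to 96414833 in RefSeq. The first 60 bases from the RefSeq start are shown, with the telomerase template CTAACCCT, the complement of the telomere repeat, in capitals.
Terc: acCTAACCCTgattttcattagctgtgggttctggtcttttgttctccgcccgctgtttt
These 8 letters, searched on both strands, were found in the first 60 bases of 0.103% of 141515 transcripts. *Lars2* is a protein-coding gene on chromosome 9 from 123366927 to 123462666, plus strand. No position or sequence of *Rn45s* was used here.

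*Rn45s*, the rRNA precursor, held 1.79%, 3.03% and 14.4% of all counts in WT replicates 1, 2 and 3 and 2.26%, 2.50% and 12.5% in KO replicates 1, 2 and 3. Replicate 3 was the high library in both genotypes, and the KO and WT values overlapped. The counts behind these shares were 829268 to 1593919, so that replicate 3 had the highest *Rn45s* count of each genotype although it was the shallowest library. In normalized counts (counts divided by the DESeq2 size factor of the library), replicate 3 exceeded the mean of replicates 1 and 2 by 6.83-fold in WT and 5.79-fold in KO. The depletion step removes rRNA, so these shares are of what remained after it and do not measure rRNA in the cells.

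*Lars2* followed the same replicate over a far wider range. It held 0.162%, 0.0585% and 5.31% of counts in WT replicates 1, 2 and 3 and 0.0512%, 0.0693% and 4.56% in KO replicates 1, 2 and 3. Both replicate 3 libraries were far above every other library, and among the other 4 WT replicate 1 was the high one. In rank, *Lars2* was the gene with the second highest count in replicate 3 of both genotypes and ranked 66 to 281 in the others. From the lowest share to the highest, *Lars2* varied 104-fold, *Rn45s* 8.06-fold, and *Rpph1*, *Rmrp* and *Terc* between 2.21-fold and 2.46-fold.

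*Rpph1* held 2.82%, 3.83% and 2.03% of counts in WT replicates 1, 2 and 3 and 3.18%, 4.17% and 1.82% in KO replicates 1, 2 and 3. Replicate 2 was the high library and replicate 3 the low one in both genotypes, and the genotypes overlapped. In replicates 1 and 2 of both genotypes *Rpph1* had more counts than any other gene, and *Rn45s* came second.

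*Rmrp* held 1.13%, 1.76% and 1.17% of counts in WT replicates 1, 2 and 3 and 1.46%, 2.11% and 0.954% in KO replicates 1, 2 and 3. Replicate 2 was again the high library in both genotypes, while the low one was replicate 1 in WT and replicate 3 in KO. Per kilobase of transcript, which allows different genes to be compared, *Rpph1* was at 56937 to 130642 CPM (counts scaled to the library total) per kilobase and *Rmrp* at 33940 to 75003. *Rpph1* was above *Rmrp* on this scale in all 6 libraries.

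*Terc* was measured at a much lower level, 75.4 to 185 CPM per kilobase. It had 1722, 2941 and 352 counts in WT replicates 1, 2 and 3 and 2914, 3280 and 399 in KO replicates 1, 2 and 3. As shares of all counts these were 0.00372%, 0.00783% and 0.00319% in WT and 0.00611%, 0.00702% and 0.00349% in KO. Replicate 2 was the high library and replicate 3 the low one in both genotypes, with WT replicate 1 close to replicate 3. With *Rn45s* and *Lars2* left out of the total, *Terc* in WT replicate 3 was at 0.00397%, above the 0.00379% of WT replicate 1.

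**Figure D1:**
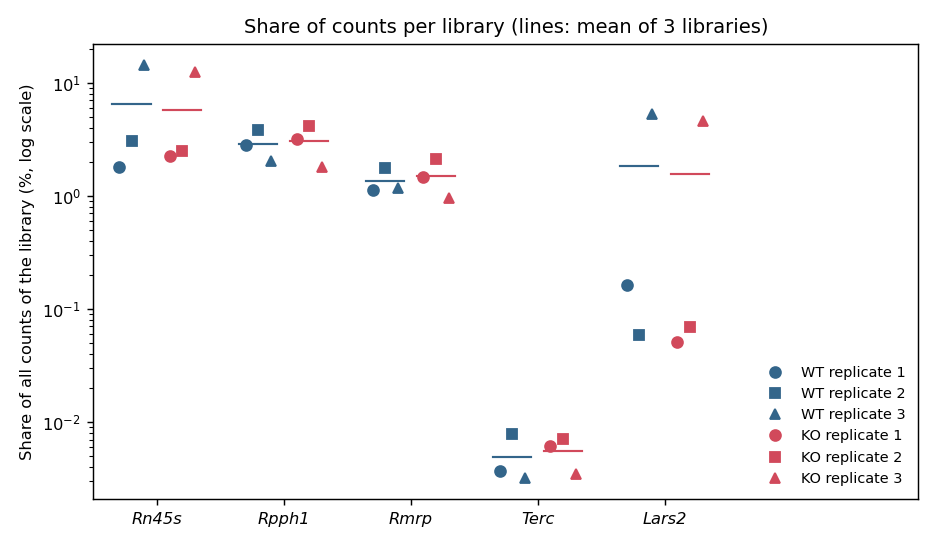
Share of all counts of a library taken by each gene (vertical axis, %, log scale), for 3 WT (blue) and 3 KO (red) libraries, with circles, squares and triangles for replicates 1, 2 and 3 and a line at the mean of each genotype. *Rn45s* and *Lars2* are highest in both triangles (12.5% and 14.4%, 4.56% and 5.31%), and *Rpph1* and *Terc* lowest in them.

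Counting error was small beside these differences. The half-width of the 95% Wilson interval was at most 1.32% of the share itself for *Rn45s*, *Rpph1*, *Rmrp* and *Lars2*, and at most 10.5% for *Terc*. The reads carried no molecular identifiers that the sources used here mention, so these intervals cover counting error only. The spread between libraries of one genotype was large instead. The coefficient of variation of normalized counts over the 3 WT libraries was 115% for *Rn45s*, 164% for *Lars2*, 26.0% for *Rpph1*, 22.8% for *Rmrp* and 47.4% for *Terc*. The median over the 11524 genes with a mean of at least 50 normalized counts was 9.55%, and each of the 5 genes varied more than at least 90.8% of those genes in WT and 95.9% in KO.

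The 5 genes together took 5.91%, 8.69% and 22.9% of all counts in WT replicates 1, 2 and 3 and 6.96%, 8.85% and 19.8% in KO replicates 1, 2 and 3. In replicates 1 and 2 the larger part of this was *Rpph1* and *Rmrp* (3.96% to 6.28% of counts), and in replicate 3 it was *Rn45s* and *Lars2* (19.7% in WT and 17.0% in KO). Without *Rn45s* and *Lars2*, replicate 3 had 8860400 counts in WT and 9474621 in KO left for all other genes.

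Over all genes with a mean of at least 50 normalized counts, 15 of 11524 (0.13%) had at least 2-fold more in replicate 3 than in either other replicate in both genotypes, and 2 of the 5 genes described were among these 15. This is the contrast they were chosen on, and nothing is read from the count. The gene with the highest fold was *Mir5109*, at 501, 244 and 31351 normalized counts in WT replicates 1, 2 and 3 and 191, 274 and 22671 in KO replicates 1, 2 and 3. *Lars2* was next, followed by *Rn45s* and then by *Snora68* and *Snora15*, small nucleolar RNAs of the class that guides pseudouridylation. The smallest fold of replicate 3 over any other library of the genotype was 62.6 for *Mir5109*, 37.5 for *Lars2*, 5.43 for *Rn45s*, 4.05 for *Snora68* and 2.95 for *Snora15*.

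The reverse pattern, replicate 3 below both other replicates in both genotypes, was seen for *Rpph1* and *Terc* and for 30.6% of the 11524 genes. *Rmrp* did not show it because WT replicate 1 was lower than WT replicate 3. In normalized counts, replicate 3 over the mean of replicates 1 and 2 was 0.695 in WT and 0.545 in KO for *Rpph1*, 0.921 and 0.589 for *Rmrp*, and 0.630 and 0.587 for *Terc*. Over all genes, the middle 90% of the log2 of this ratio ran from -0.47 to 0.51 in WT and from -0.46 to 0.45 in KO. A second pattern did not involve replicate 3. Replicate 2 was above replicate 1 in both genotypes for 4 of the 5 genes, all but *Lars2*, and for 27.7% of all genes.

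**Figure D2:**
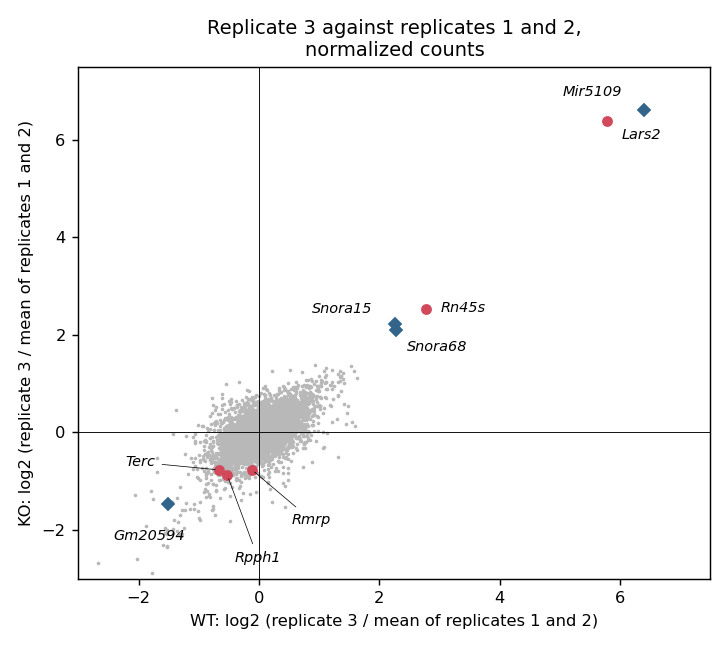
Log2 ratio of replicate 3 to the mean of replicates 1 and 2 in normalized counts, WT (horizontal axis) against KO (vertical axis), for 11523 genes with a mean of at least 50 normalized counts and a ratio above 0 in both genotypes (grey). The 5 genes are red circles and other named genes blue diamonds. *Lars2*, *Mir5109* and *Rn45s* lie far above the grey cloud in both genotypes, and *Rpph1*, *Rmrp* and *Terc* lie below 0 in both.

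Although *Lars2* and *Rn45s* were both high in replicate 3, they did not keep a fixed ratio. For 100 counts of *Rn45s* there were 9.04, 1.93 and 36.8 counts of *Lars2* in WT replicates 1, 2 and 3 and 2.27, 2.77 and 36.6 in KO replicates 1, 2 and 3. Both replicate 3 libraries were close to each other and above the other 4. WT replicate 1 had the lowest *Rn45s* share of the 6 libraries and, among the 4 deep libraries, the highest *Lars2* share, so the order of the 2 genes was not the same there. *Lars2* kept a steadier ratio to *Mir5109*, between 51.2 and 85.5 counts of *Lars2* for each count of *Mir5109*.

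Within the RNase P and RNase MRP pair, *Rpph1* had 2.49, 2.18 and 1.74 counts for each count of *Rmrp* in WT replicates 1, 2 and 3 and 2.17, 1.98 and 1.90 in KO replicates 1, 2 and 3. The ratio was lowest in replicate 3 in both genotypes. *Rprl3*, the relative of *Rpph1* shown above, had 3.89 to 5.08 counts for 100 counts of *Rpph1*, with the highest value in KO replicate 3. These 4 ratios (*Lars2* to *Rn45s*, *Lars2* to *Mir5109*, *Rpph1* to *Rmrp*, *Rpph1* to *Rprl3*), the ratio of *Rmrp* to *Terc* and the summed share of the 5 genes were compared between genotypes in 6 exact two-sided permutation tests. The smallest p was 0.3, for *Rpph1* to *Rprl3* (WT 24.4 ± 1.19, KO 22.4 ± 2.42, SD, n = 3), every adjusted p was 1, and 3 against 3 libraries cannot give a p below 0.1.

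**Figure D3:**
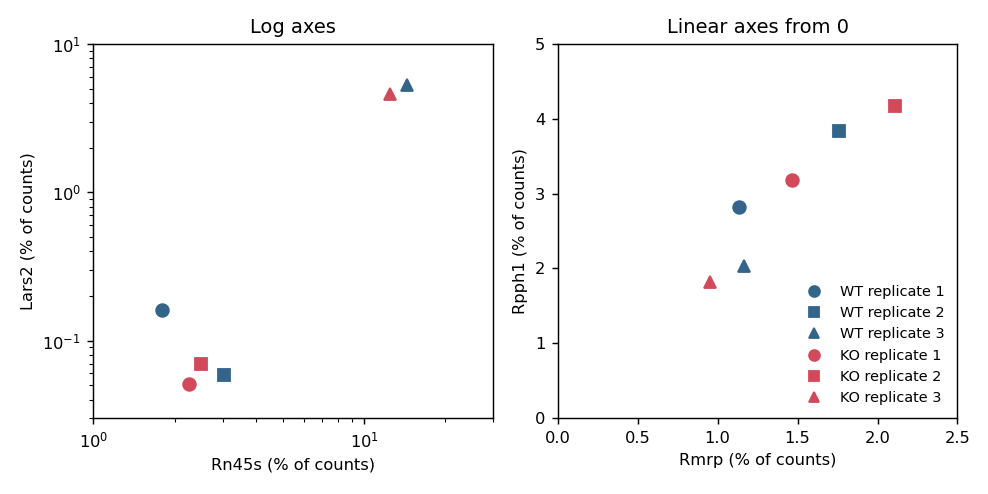
Left, share of counts of *Lars2* against *Rn45s* (%, both axes log scale). Right, share of counts of *Rpph1* against *Rmrp* (%, linear axes from 0). Each point is 1 library, WT in blue and KO in red. On the left both replicate 3 libraries stand apart at the top right and WT replicate 1 has the lowest *Rn45s* share with a *Lars2* share of 0.162%. On the right *Rpph1* is above *Rmrp* in every library.

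As a description over the 6 libraries, which share their depth and replicate structure, the Pearson correlation of log2(normalized count + 1) was 0.94 between *Rn45s* and *Lars2*, and 0.90, 0.89 and 0.87 for *Rpph1* with *Rmrp*, *Rpph1* with *Terc* and *Rmrp* with *Terc*. It was -0.89 between *Lars2* and *Rpph1*. *Rn45s* and *Lars2* thus ran high in replicate 3, and *Rpph1*, *Rmrp* and *Terc* ran high in replicate 2.

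The genes whose pattern over the 6 libraries was most like each of the 5 were taken by the same correlation, at a mean of at least 50 normalized counts. For *Rn45s* these were *Mbd6*, *Auts2*, *Mkl2* and *Hspg2* (0.995 to 0.997). *Hspg2*, which encodes the basement membrane protein perlecan, was at 1350, 1554 and 3124 normalized counts in WT replicates 1, 2 and 3 and at 1444, 1469 and 2706 in KO replicates 1, 2 and 3. For *Lars2* they were *Mir5109*, *Rbfox2*, *E130311K13Rik* and *5730577I03Rik* (0.996 to 0.999). *Rbfox2*, a splicing regulator, was at 1659 to 1744 in replicates 1 and 2 and at 2067 in WT and 2061 in KO replicate 3.

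For *Rpph1* the most alike genes were *2810408I11Rik*, *Snrk*, *Slc25a17* and *Hist4h4* (0.985 to 0.997). *Hist4h4*, a histone H4 gene, was at 14388, 24668 and 11106 normalized counts in WT replicates 1, 2 and 3 and at 19667, 24997 and 8948 in KO replicates 1, 2 and 3, again highest in replicate 2 and lowest in replicate 3. For *Rmrp* they were *Orc4*, *Nt5c3*, *Eps15* and *Pam16* (0.973 to 0.987), and for *Terc* *Rnu12*, *Adrbk2*, *Gm3604* and *Snord35a* (0.982 to 0.991). *Rnu12* is the U12 RNA of the minor spliceosome, another small structural RNA, and was at 118, 205 and 110 normalized counts in WT replicates 1, 2 and 3 and at 172, 183 and 114 in KO replicates 1, 2 and 3.

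Sequence similarity to rRNA was examined for all genes with a GENCODE transcript, since reads from rRNA could be counted on genes that resemble it. Of 21777 such genes, 0 had a match of at least 100 bases at 90% identity to the transcripts annotated at the rRNA locus of chromosome 17 or to the mitochondrial rRNAs. *Lars2* had no match of any length that passed the significance cutoff of the search (BLAST), which drops short or weak matches. These transcripts do not hold the whole precursor, and *Rn45s* and *Mir5109* could not be compared, so the search says only that no match past its cutoff was found in *Lars2* transcripts. Below 90% identity, and chosen after its values were seen, *Gm20594* (chromosome 6, 79817916 to 79818364) matched the mitochondrial large rRNA over 435 bases at 88.5% identity. Its level was 20997, 21938 and 7519 normalized counts in WT replicates 1, 2 and 3 and 19705, 20564 and 7275 in KO replicates 1, 2 and 3. It was thus low in replicate 3, where *Rn45s* was high.

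To ask whether loss of PATZ1 altered any of the 5 genes, KO was compared with WT by the Wald test of DESeq2 over all genes. None of the 5 passed the threshold. DESeq2 gave an adjusted p-value for 4 of them and called 0 at 0.05, where it called 7.49% of the 15309 genes tested. At an unadjusted p under 0.05 the count was also 0, and edgeR and limma-voom gave 0 as well, where DESeq2 had 13.9% of all genes with a p-value, edgeR 21.1% and limma-voom 23.2%. All 5 were above a mean of 50 normalized counts, and *Lars2* was the one without a p-value. These are levels in bulk RNA, in which fewer cells of a type and less RNA per cell cannot be told apart. The libraries of the genotypes overlapped for each of the 5, while they did not overlap for 25.6% of the genes tested. No gene of the 5 moved the same way in all 3 replicate numbers, which 56.9% of the 11524 genes did.

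The mean share of *Rn45s* was 6.42% ± 6.97 for WT and 5.74% ± 5.83 for KO (SD, n = 3). On the log2 scale KO differed from WT by -0.16 ± 1.17 (SE, DESeq2 adjusted p 0.975). The 95% interval of the fold ran from 0.182 to 4.43, so that changes of several fold in either direction were not detectable at this spread. Without replicate 3 of both genotypes, the log2 fold change was 0.024. By replicate number, KO over WT was 1.28, 0.861 and 0.862 in normalized counts, higher in replicate 1 and lower in replicates 2 and 3.

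The mean share of *Rpph1* was 2.90% ± 0.905 for WT and 3.05% ± 1.18 for KO, and the log2 difference was 0.11 ± 0.34 (SE, DESeq2 adjusted p 0.938). The mean share of *Rmrp* was 1.35% ± 0.351 for WT and 1.51% ± 0.578 for KO, and the log2 difference was 0.18 ± 0.33 (SE, DESeq2 adjusted p 0.886). Both were higher in KO in replicates 1 and 2 (1.15-fold and 1.14-fold for *Rpph1*, 1.31-fold and 1.25-fold for *Rmrp*) and lower in replicate 3 (0.894 and 0.816 of WT). Without replicate 3 of both genotypes the log2 differences were 0.19 and 0.35, with adjusted p 0.822 and 0.753 (DESeq2). The 95% intervals of the fold were 0.683 to 1.70 for *Rpph1* and 0.720 to 1.78 for *Rmrp*.

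*Terc* had 1342 ± 637 normalized counts for WT and 1548 ± 453 for KO. The log2 difference was 0.21 ± 0.45 (SE, DESeq2 adjusted p 0.903), with a 95% interval of the fold from 0.629 to 2.12. KO over WT was 1.67 in replicate 1, 0.937 in replicate 2 and 1.09 in replicate 3. *Terc* was the gene whose call rested on 1 library. Without WT replicate 2, its highest WT library, the log2 fold change was 0.68 and the adjusted p 0.0345. Over all alternatives its adjusted p ran from 0.0345 to 1.00, and no other alternative called it. Without replicate 3 of both genotypes the log2 difference was 0.23.

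The mean share of *Lars2* was 1.84% ± 3.00 for WT and 1.56% ± 2.60 for KO. The log2 difference was -0.24 ± 1.75 (SE), with a 95% interval of the fold from 0.0785 to 9.16. DESeq2 gave no p-value because a count exceeded its Cook's distance limit for outliers, and without that limit the adjusted p was 0.974 (0.637 to 0.974 over the alternatives that gave one). KO over WT was 0.322 in replicate 1, 1.24 in replicate 2 and 0.858 in replicate 3. Without replicate 3 of both genotypes the log2 difference was -0.82, with an adjusted p of 0.637 (DESeq2).

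**Figure D4:**
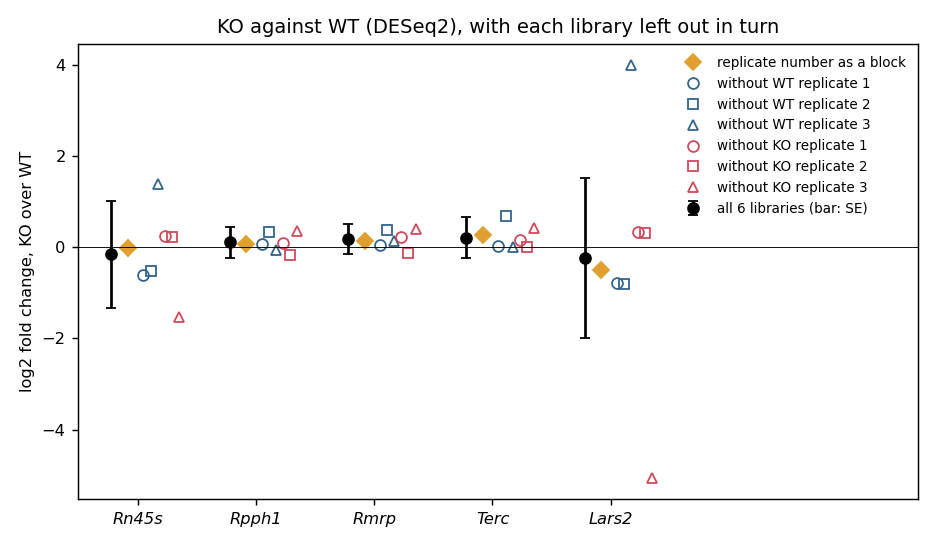
Log2 fold change of KO over WT for each gene from DESeq2 with all 6 libraries (black, bar is the SE), with the replicate number as a block (orange diamonds), and with each library left out in turn (open symbols, shape and color by the library left out). Bars for all genes cross 0. *Rn45s* and *Lars2* move by whole log2 units when replicate 3 of 1 genotype is left out, from -1.53 to 1.40 and from -5.07 to 4.01.

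The proteins and relatives that work with these RNAs were taken from lists of their pathways. RNase P and RNase MRP share most of their proteins, from the large subunit *Pop1* to *Rpp40*. Of the 11 protein genes measured, 0 passed the threshold, beside 7.49% of all genes tested, 0 had an unadjusted p under 0.05, and both edgeR and limma-voom also called 0. Their log2 fold changes ran from -0.22 to 0.16 with a median of 0.09, beside a median of 0.0087 over all genes tested. Neighbors of the RNA genes within 5 kb did not pass the threshold either, and neither *Terc* nor *Lars2* had a counted neighbor within that distance. *Ccnb1ip1*, overlapping *Rpph1*, was at 1316 ± 91.1 and 1249 ± 22.5 normalized counts (log2 fold change -0.07, adjusted p 0.858), and *Parp2*, which starts 73 bases from *Rpph1*, at 1598 ± 226 and 1708 ± 59.1 (0.09, adjusted p 0.825). *Ccdc107*, overlapping *Rmrp*, was at 291 ± 12.2 and 297 ± 20.5 (0.02, adjusted p 0.979), and *Arhgef39* at 384 ± 40.8 and 377 ± 13.0 (-0.05, adjusted p 0.929).

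Of 12 genes for telomerase proteins and *Terc* maturation, 1 was lower in KO and 0 were higher, beside 7.49% called over all genes, and 3 had an unadjusted p under 0.05 (3 by edgeR and by limma-voom), beside 13.9%, 21.1% and 23.2% of all genes by DESeq2, edgeR and limma-voom. The gene called was *Wrap53*, whose product brings *Terc* to Cajal bodies. *Wrap53* was at 1060, 930 and 1030 normalized counts in WT replicates 1, 2 and 3 and at 711, 722 and 859 in KO replicates 1, 2 and 3. Every KO library was below every WT library, and the log2 difference was -0.41 ± 0.12 (SE, DESeq2 adjusted p 0.0160). edgeR and limma-voom also called it. The call was lost without WT replicate 1, without KO replicate 1 or without KO replicate 2, where 0 genes of the list were called. Over all genes these 3 fits called 605, 583 and 590, beside 1146 with all 6 libraries. The median log2 fold change of the list was 0.07. Of the 7 shelterin genes, whose products bind the telomere repeat, 0 passed the threshold and 1 had an unadjusted p under 0.05 (2 by edgeR and by limma-voom, which called 0).

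Among 28 rRNA processing factors, 1 was lower in KO and 0 were higher, again beside 7.49% over all genes, and 3 had an unadjusted p under 0.05 (4 by edgeR and by limma-voom), beside 13.9%, 21.1% and 23.2% of all genes. *Pes1*, a subunit of the PeBoW complex that matures the large ribosomal subunit, was at 8518, 7302 and 6821 normalized counts in WT replicates 1, 2 and 3 and at 6156, 6117 and 6081 in KO replicates 1, 2 and 3. Every KO library was below every WT library, by the narrowest margin in replicate 3, and the log2 difference was -0.30 ± 0.10 (SE, DESeq2 adjusted p 0.0478). *Pes1* was not called by edgeR or limma-voom, and its call was kept under 7 of 17 alternatives. It was lost on leaving out any 1 library other than WT replicate 3. Of the 15 genes of the RNA polymerase I machinery, which transcribes the rRNA genes, 0 passed (0 at an unadjusted p under 0.05, 1 by edgeR and by limma-voom, which called 0), with log2 fold changes of -0.15 to 0.23. Of the 23 genes of the RNA polymerase III machinery, which makes *Rpph1* and *Rmrp*, 0 passed as well (1 at an unadjusted p under 0.05 by each tool, and edgeR and limma-voom called 0), with log2 fold changes of -0.14 to 0.30.

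*Wrap53* and *Pes1* both lie on chromosome 11, where the median log2 fold change of the 1260 genes tested was -0.27. *Patz1* is on that chromosome too. The part of this shift in the values of *Wrap53* and *Pes1* was not tested.

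The other 16 mitochondrial aminoacyl-tRNA synthetases are the family of *Lars2*. Of these 16, 0 passed the threshold between genotypes (1 at an unadjusted p under 0.05, 3 by edgeR and by limma-voom, which called 0), with log2 fold changes of -0.27 to 0.28, and 0 were 2-fold above in replicate 3, beside 7.49% and 0.13% of all genes. Per kilobase of the longest transcript, the family ran from 1.48 to 25.8 CPM per kilobase over all libraries. *Lars2* was at 416, 150 and 13640 in WT replicates 1, 2 and 3 and at 131, 178 and 11723 in KO replicates 1, 2 and 3 on that scale. It was above all 16 relatives in each library, by 14.3-fold to 45.8-fold over their median in replicates 1 and 2 and by 1832-fold and 1589-fold in replicate 3 of WT and KO. *Lars* of the cytosol had a log2 fold change of 0.18 (adjusted p 0.303).

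Of 19 further structural RNAs sought, 5 were in the files: *Rprl1*, *Rprl2*, *Rprl3*, *Bc1*, a small neuronal RNA, and *Vaultrc5*, a vault RNA. None passed the threshold, beside 7.49% of all genes (2 had an unadjusted p under 0.05, 0 by edgeR and 1 by limma-voom, which called 0, beside the same shares of all genes as above), and their log2 fold changes ran from 0.14 to 0.68. Replicate 3 over the mean of replicates 1 and 2 was 0.708 in WT and 0.656 in KO for *Rprl3*, similar to *Rpph1*, but 1.36 and 1.31 for *Rprl2*.

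With the replicate number as a block, none of the 5 genes was called, though the numbers were not shown to pair the libraries. The log2 fold changes were -0.02 for *Rn45s*, 0.07 for *Rpph1*, 0.14 for *Rmrp*, 0.26 for *Terc* and -0.51 for *Lars2* (DESeq2 adjusted p 0.982, 0.829, 0.798, 0.568 and 0.656). The block called 14.6% of all genes tested (2131 of 14567), and 14 of the 118 list genes. The genes named here were picked for those calls. These were 5 rRNA processing factors, with *Pes1* and *Npm1* lower and *Mphosph10*, *Rrp1b* and *Wdr12* higher in KO, and 3 telomerase genes, with *Wrap53* and *Nhp2* lower and *Gar1* higher. The others were *Rprl3* and *Bc1* among the structural RNAs, and *Polr3d*, *Pot1b*, *Rars2* and *Lars*, all higher in KO. The 4 lower genes lie on chromosome 11, and *Rprl3* had a log2 fold change of 0.20 (adjusted p 0.00361) where *Rpph1* was not called.

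**Figure D5:**
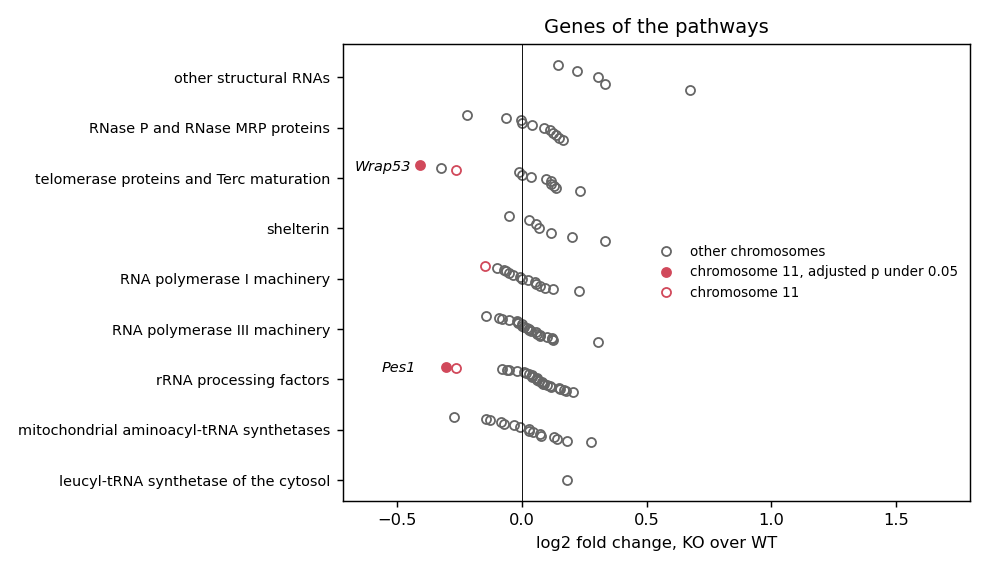
Log2 fold change of KO over WT for the measured genes of each pathway list, 1 circle a gene, spread vertically for legibility. Filled circles have an adjusted p under 0.05 (DESeq2) and red marks chromosome 11. The filled circles are *Wrap53* (-0.41) and *Pes1* (-0.30).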

How the data were processed

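RNA-seq libraries of WT and *Patz1* KO ESCs were grouped by their titles. The authors deposited raw read counts per gene symbol, 1 file per library. Their processing notes list TopHat2 2.1.1, Bowtie2 2.3.1.0, featureCounts 1.6.2, DESeq2 and mm10. Annotation, strand use and the handling of multiply mapped and duplicate reads were not stated, so reads of near-identical genes may be split or lost. Genotypes were compared with DESeq2 1.42.0 (R 4.3.3; Wald test, two-sided, Benjamini-Hochberg, threshold 0.05 as in the study, independent filtering at 0.1, genotype alone, no shrinkage). Alternatives used edgeR 4.0.16, limma 3.58.1, other size factors, other filters, the replicate block and fewer libraries. The 5 genes, the lists and the tests were chosen with earlier results of these data known. Named genes were the 5, *Patz1*, called list members, the 4 most alike genes per gene, neighbors within 5 kb, and the 5 with the highest fold in replicate 3. Cell type markers, ends of lists, structural RNAs in the files, *Gm20594* and genes called with the block were named outside that rule. Deviations from genotype means of same-numbered libraries correlated at 0.469, 0.619 and 0.684 over 11524 genes. Libraries of different numbers were not compared, so this does not show that the numbers pair the libraries. Every pair of libraries differed by more than sampling noise. The study calls the libraries biological replicates. The labels do not say that they came from separate cultures, and if they did not, p-values measure only the spread between these libraries. Code was tested on simulated counts.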

Additional observations from a re-analysis of the deposited data

How the results depend on the processing

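No gene of the 5 was called under 16 of 17 alternatives, and *Terc* (1 gene) without WT replicate 2. Leaving out 1 library moved the log2 fold change between -1.53 and 1.40 for *Rn45s*, -0.17 and 0.35 for *Rpph1*, -0.13 and 0.39 for *Rmrp*, 0.0094 and 0.68 for *Terc*, and -5.07 and 4.01 for *Lars2*. The sign turned for *Rn45s* on leaving out WT replicate 3 (1.40), either KO replicate 1 (0.24) or 2 (0.21), or both replicates 3 (0.024), for *Rpph1* without WT replicate 3 (-0.05) or KO replicate 2 (-0.17), for *Rmrp* without KO replicate 2 (-0.13), and for *Lars2* on leaving out WT replicate 3 (4.01), or KO replicate 1 (0.33) or 2 (0.32). The cause was not tested. Of 68 values of the 4 genes other than *Lars2*, 60 kept both their sign and their side of the threshold. For *Lars2* 14 of 17 kept their sign, and 12 of the 17 had no adjusted p.

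The replicate block called 2 other structural RNAs, 3 telomerase genes, 1 shelterin gene, 1 RNA polymerase III gene, 5 rRNA processing factors, 1 mitochondrial synthetase and *Lars* (1). It changed no call of the 5 genes, and over all genes it called 2131 against 1146. Without both replicates 3 there were 2 telomerase genes, 1 shelterin gene and 2 rRNA processing factors among 1332 calls over all genes, and with totals without *Rn45s* and *Lars2* as size factors 2 telomerase genes and 2 rRNA processing factors among 1241. edgeR, limma-voom, TMM, total counts and no independent filtering each called 0 rRNA processing factors, among 879 to 1190 calls over all genes. Leaving out 1 library gave 0 to 2 telomerase genes, 0 to 1 shelterin, 0 to 1 RNA polymerase III and 0 to 2 rRNA processing genes. The calls over all genes ran from 583 to 1341 in these fits.

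The alternatives for replicate 3 against replicates 1 and 2, the contrast the genes were chosen on, left out no replicate 3 library. The log2 ratio of replicate 3 to replicates 1 and 2 kept its sign for all 5 genes under each of them, and nothing is read from this. With *Rn45s* and *Lars2* left out of the total it was 2.74 for *Rn45s*, -0.61 for *Rpph1* and -0.63 for *Terc*, and in normalized counts 2.65 for *Rn45s* and -0.72 for *Terc*. Without 1 of the other libraries it lay between 2.32 and 2.70 for *Rn45s* and -1.10 and -0.57 for *Terc*.

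With 3 libraries per genotype, replicate 3 the shallowest, and folds of *Rn45s* and *Lars2* uncertain by several fold, even genotype effects of several fold on these 2 genes were not detectable.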

Other observations

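Replicate 3 also stood apart in 2 other gene groups, both picked after their values were seen and given without a test. Of 60 replication histone genes (symbols *Hist1* to *Hist4*) with a mean of at least 50 normalized counts, 47 (78.3%) were lower in replicate 3 than in both other replicates in both genotypes, beside 30.6% of all genes, with a median log2 ratio of replicate 3 to replicates 1 and 2 of -0.87 in WT and -1.37 in KO. *Rpph1* and *Terc* shared this direction. Most histone mRNAs of this class end in a stem-loop in place of a poly(A) tail. Of 68 snoRNA genes, 7 were at least 2-fold higher in replicate 3 in both genotypes, among the 15 such genes of all 11524, while 11 were lowest in it, and their median log2 ratio was 0.24 in WT and 0.14 in KO. Between genotypes 3 of the 60 histone genes and 1 of the 68 snoRNA genes were called, beside 7.49% of all genes tested.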
